A study of Homo sapiens with 4 samples.

Results

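The genes described here are 9 receptors through which neutrophils sense chemoattractants, out of 20136 protein-coding genes in the annotation: CXCR1, CXCR2, CXCR4, CCR1, CCR2, C5AR1, C3AR1, LTB4R and PTAFR. Each gene was given a window that holds its body and 50 kb either side on hg19. The neighbouring windows of CXCR2 and CXCR1 were merged, which left 8 windows of 955.1 kb in all. Overlapping ATAC-seq peaks of the 4 libraries were joined into 78063 regions, and 79 of them lay in the windows. ATAC-seq cuts accessible chromatin with the Tn5 transposase and reads out where the cuts fall.

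The libraries were made from HL-60, a human promyelocytic leukemia cell line that differentiates along the granulocyte lineage. The ATRA group (n = 2) received 1 µM all-trans retinoic acid, dissolved in ethanol, for 4 days. The control group (n = 2) received the same volume of ethanol for the same time, and medium and agent were renewed once in both groups. All 4 libraries come from 1 cell line, so the cells in which the regions were measured are leukemia cells and not blood neutrophils. The deposited files list peaks with scores but no read counts, so sequencing depth is unknown. The ATRA libraries held 43494 and 63541 peaks, covering 17.5 and 31.6 Mb. The control libraries held 42081 and 45903 peaks, covering 17.1 and 16.3 Mb. ATRA replicate 2 therefore stood apart in number and width of peaks in the whole genome. Its value is given where results are listed by library, but not beside the motif shares and the counts by gene. Of 9 myeloid marker genes, 4 had a promoter peak in all 4 libraries, among them CD33, SPI1, CEBPE and ITGAM, while ELANE and AZU1 had none in any. Of the markers of other cell types, none of the 4 erythroid genes had one, LCK was the only T cell gene with a peak (in both ATRA libraries), and KRT8 was the only epithelial gene with one (in both ATRA libraries and control replicate 2). CD79A, a B cell gene, had a peak in ATRA replicate 2.

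Neutrophils find their targets with G protein-coupled receptors for chemokines, complement fragments and lipid mediators, which signal through Gi proteins to phosphoinositide 3-kinase and Rac. CXCR1 and CXCR2 bind interleukin 8, whereas CXCR4 binds CXCL12 and holds immature granulocytes in the bone marrow. In the granulocyte lineage the receptors for end-target signals are gained late, and promyelocytes are known to respond poorly to chemoattractants.

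In the 8 windows, the regions held by the libraries of 1 group alone lay, apart from 1 in CXCR4, outside the receptor genes. A peak was found in both ATRA libraries and in neither control library at 6 regions, 2 of them near the C5a receptor gene C5AR1 and 1 each near C3AR1, CXCR4, CCR1 and CCR2. The reverse held at 4 regions, 2 of them near CXCR4 and 1 each near CCR1 and PTAFR. These are called ATRA-only and control-only regions. The sequences of 6 distal ones among these 10 are shown as examples. Not shown are those in introns of DHX34 and NECAP1, at the CCRL2 promoter and in an exon of CXCR4. The control-only region 49.7 kb upstream of CXCR4 (chr2:136926344-136926643, intergenic), the control-only region 20.7 kb upstream of CCR1 (chr3:46270374-46270673, in an intron of CCR3) and the control-only region 80.6 kb downstream of the start of PTAFR (chr1:28439649-28439948, intergenic) come first. The ATRA-only regions 27.4 kb upstream of C5AR1 (chr19:47765710-47766009, in an intron of CCDC9), 28.2 kb upstream of CCR1 (chr3:46277835-46278134, in an intron of CCR3) and 5.8 kb upstream of CXCR4 (chr2:136882430-136882729, intergenic) follow. Each is the 300 bp about the centre of the region, read 5′ to 3′ from the plus strand of GRCh37 (hg19), and capitals mark matches to the GATA motif (AGATAA or TGATAA) or the CEBP motif (TTGCNNAA) on either strand.
CXCR4 upstream, control-only: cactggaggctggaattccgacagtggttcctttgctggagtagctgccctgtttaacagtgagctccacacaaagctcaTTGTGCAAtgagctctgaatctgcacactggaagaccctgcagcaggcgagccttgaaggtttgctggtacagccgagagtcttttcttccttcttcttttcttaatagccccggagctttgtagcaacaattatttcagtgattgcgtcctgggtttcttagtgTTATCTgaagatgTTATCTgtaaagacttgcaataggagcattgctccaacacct
CCR1 upstream, control-only: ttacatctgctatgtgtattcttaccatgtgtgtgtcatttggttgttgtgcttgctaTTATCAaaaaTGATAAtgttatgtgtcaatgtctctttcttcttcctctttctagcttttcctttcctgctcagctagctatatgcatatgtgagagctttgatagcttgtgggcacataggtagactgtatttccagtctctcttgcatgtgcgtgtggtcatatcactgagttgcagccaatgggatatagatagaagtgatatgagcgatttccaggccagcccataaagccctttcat
PTAFR downstream, control-only: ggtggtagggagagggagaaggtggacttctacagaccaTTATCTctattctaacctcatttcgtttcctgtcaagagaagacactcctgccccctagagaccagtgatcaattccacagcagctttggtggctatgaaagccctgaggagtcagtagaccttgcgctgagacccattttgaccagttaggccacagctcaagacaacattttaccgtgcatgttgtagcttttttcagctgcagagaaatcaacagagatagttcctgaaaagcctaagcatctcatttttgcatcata
C5AR1 upstream, ATRA-only: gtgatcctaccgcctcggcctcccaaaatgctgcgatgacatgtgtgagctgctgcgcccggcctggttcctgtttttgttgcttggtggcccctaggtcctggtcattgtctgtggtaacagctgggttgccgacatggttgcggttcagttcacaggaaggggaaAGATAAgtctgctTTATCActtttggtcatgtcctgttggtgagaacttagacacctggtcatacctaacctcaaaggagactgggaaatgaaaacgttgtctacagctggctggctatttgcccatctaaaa
CCR1 upstream, ATRA-only: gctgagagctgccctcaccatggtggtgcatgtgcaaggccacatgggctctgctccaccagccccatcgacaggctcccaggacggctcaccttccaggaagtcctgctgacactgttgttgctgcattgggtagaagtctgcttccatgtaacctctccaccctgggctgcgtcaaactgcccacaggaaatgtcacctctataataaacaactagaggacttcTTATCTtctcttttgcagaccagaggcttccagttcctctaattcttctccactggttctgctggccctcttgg
CXCR4 upstream proximal, ATRA-only: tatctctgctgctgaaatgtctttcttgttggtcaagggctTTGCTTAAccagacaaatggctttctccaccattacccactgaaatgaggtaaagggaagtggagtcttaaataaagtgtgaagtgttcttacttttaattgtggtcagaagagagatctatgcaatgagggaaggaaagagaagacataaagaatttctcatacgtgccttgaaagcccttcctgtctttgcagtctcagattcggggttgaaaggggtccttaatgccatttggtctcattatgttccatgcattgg

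All 3 of the control-only sequences shown hold a GATA match, and the one upstream of CXCR4 holds a CEBP match as well. Among the 3 ATRA-only sequences shown, those of C5AR1 and CCR1 hold GATA matches and that of CXCR4 holds a CEBP match. Of the regions not shown, the control-only one in the CXCR4 exon and the ATRA-only one in DHX34 hold no GATA match. The ATRA-only ones in NECAP1 and at the CCRL2 promoter hold one each. Over all 79 regions of the windows, 26 (32.9%) had a GATA match in these 300 bp, against 26.8% of all 78063 regions. GATA matches were present in 51.5% of all control-only regions and in 22.9% of all ATRA-only regions, and in the windows in 3 of 4 and 4 of 6. The shares of the other motifs in the windows were 10 of 79 for CEBP (17.2% of all regions), 10 of 79 for PU.1 (GAGGAAGT, 10.3%), 7 of 79 for RUNX (AACCACA, 10.8%) and 8 of 79 for AP-1 (TGACTCA or TGAGTCA, 7.76%). The DR5 element of retinoic acid receptors, a direct repeat of AGGTCA or a close variant of it with 5 bases between the repeats, was found in 0 of 79 and in 0.137% of all regions. Both strands were searched, and no match of one motif was removed for overlapping another. These are matches of letters and not measured binding.

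Peaks of the windows numbered 45 and 58 in the ATRA libraries and 49 and 46 in the control libraries. The groups overlapped, with ATRA replicate 1 lowest and ATRA replicate 2 highest. The mean was 51.50 ± 9.19 (SD, n = 2) in ATRA and 47.50 ± 2.12 (SD, n = 2) in control, a difference of 4.00 peaks (exact permutation test, two-sided p = 1.000). With 2 libraries a group this test cannot go below 0.333. The length under those peaks was 17.65 and 30.66 kb in ATRA and 18.25 and 15.22 kb in control. The means were 24.15 ± 9.20 and 16.74 ± 2.14 kb (SD, n = 2 each), a difference of 7.42 kb (exact permutation test, two-sided p = 0.667). ATRA replicate 1 lay between the controls, and ATRA replicate 2 lay above all others. Without ATRA replicate 2 the differences were -2.50 peaks and 0.91 kb, without ATRA replicate 1 they were 10.50 peaks and 13.92 kb, and with the lists cut to equal numbers of peaks they were -5.00 peaks and 3.84 kb. In the windows the median peak was 428.0 bp wide in ATRA replicate 2 and between 267.5 and 350.0 bp in the other libraries. ATRA replicate 2 had the widest peak at 22 of the 25 regions found in all 4 libraries, and at 75.6% of such regions in the whole genome.

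**Figure D1:**
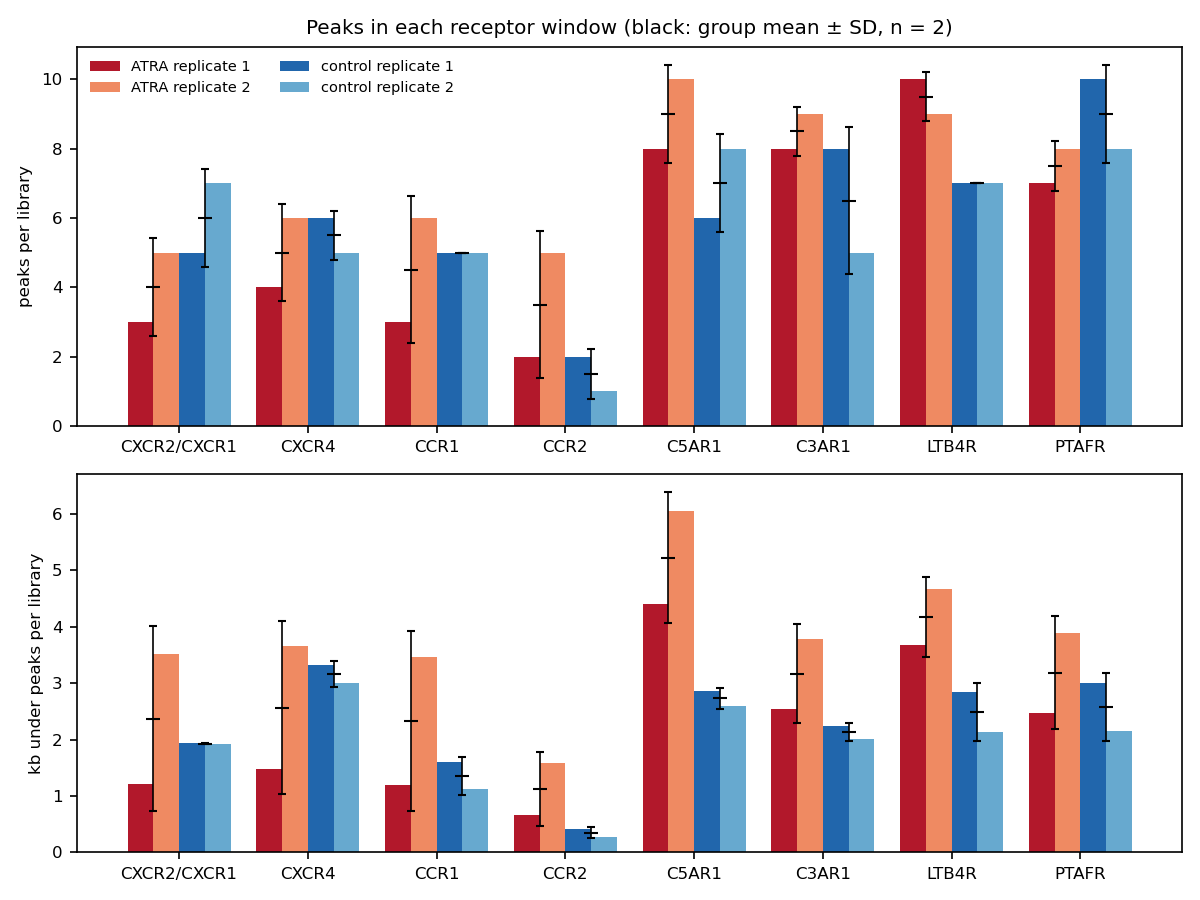
Number of peaks (upper panel) and kilobases under peaks (lower panel) in each receptor window, with 1 bar per library and black marks for the group mean ± SD (n = 2). ATRA replicate 2 covers more kilobases than any other library in all 8 windows, and both ATRA libraries cover more than either control in the windows of CCR2, C5AR1, C3AR1 and LTB4R.

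Split by window, the number of peaks was higher in both ATRA libraries than in either control at LTB4R alone, with 10 and 9 against 7 and 7. That is 1 of 8 windows, and the same held in 22.2% of the windows of all protein-coding genes. It was lower in both ATRA libraries in 0 of 8 windows, against 2.92% of all genes. The length under peaks was higher in both ATRA libraries in 4 of 8 windows, against 44.6% of all genes. At C5AR1 it was 4.40 and 6.06 kb in ATRA and 2.87 and 2.60 kb in control. At LTB4R it was 3.68 and 4.68 kb against 2.85 and 2.13 kb. The windows of C3AR1 (2.55 and 3.79 kb against 2.25 and 2.02 kb) and CCR2 (0.66 and 1.58 kb against 0.42 and 0.28 kb) had the same order. Each of these 4 windows reached the smallest possible p of 0.333 in the exact permutation test, which the design cannot take below the usual threshold. In the windows of CXCR4, CXCR2/CXCR1, CCR1 and PTAFR the groups overlapped, with ATRA replicate 1 below the higher control and ATRA replicate 2 above both. No window had less length under peaks in both ATRA libraries, which was so for 1.13% of all genes.

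**Figure D2:**
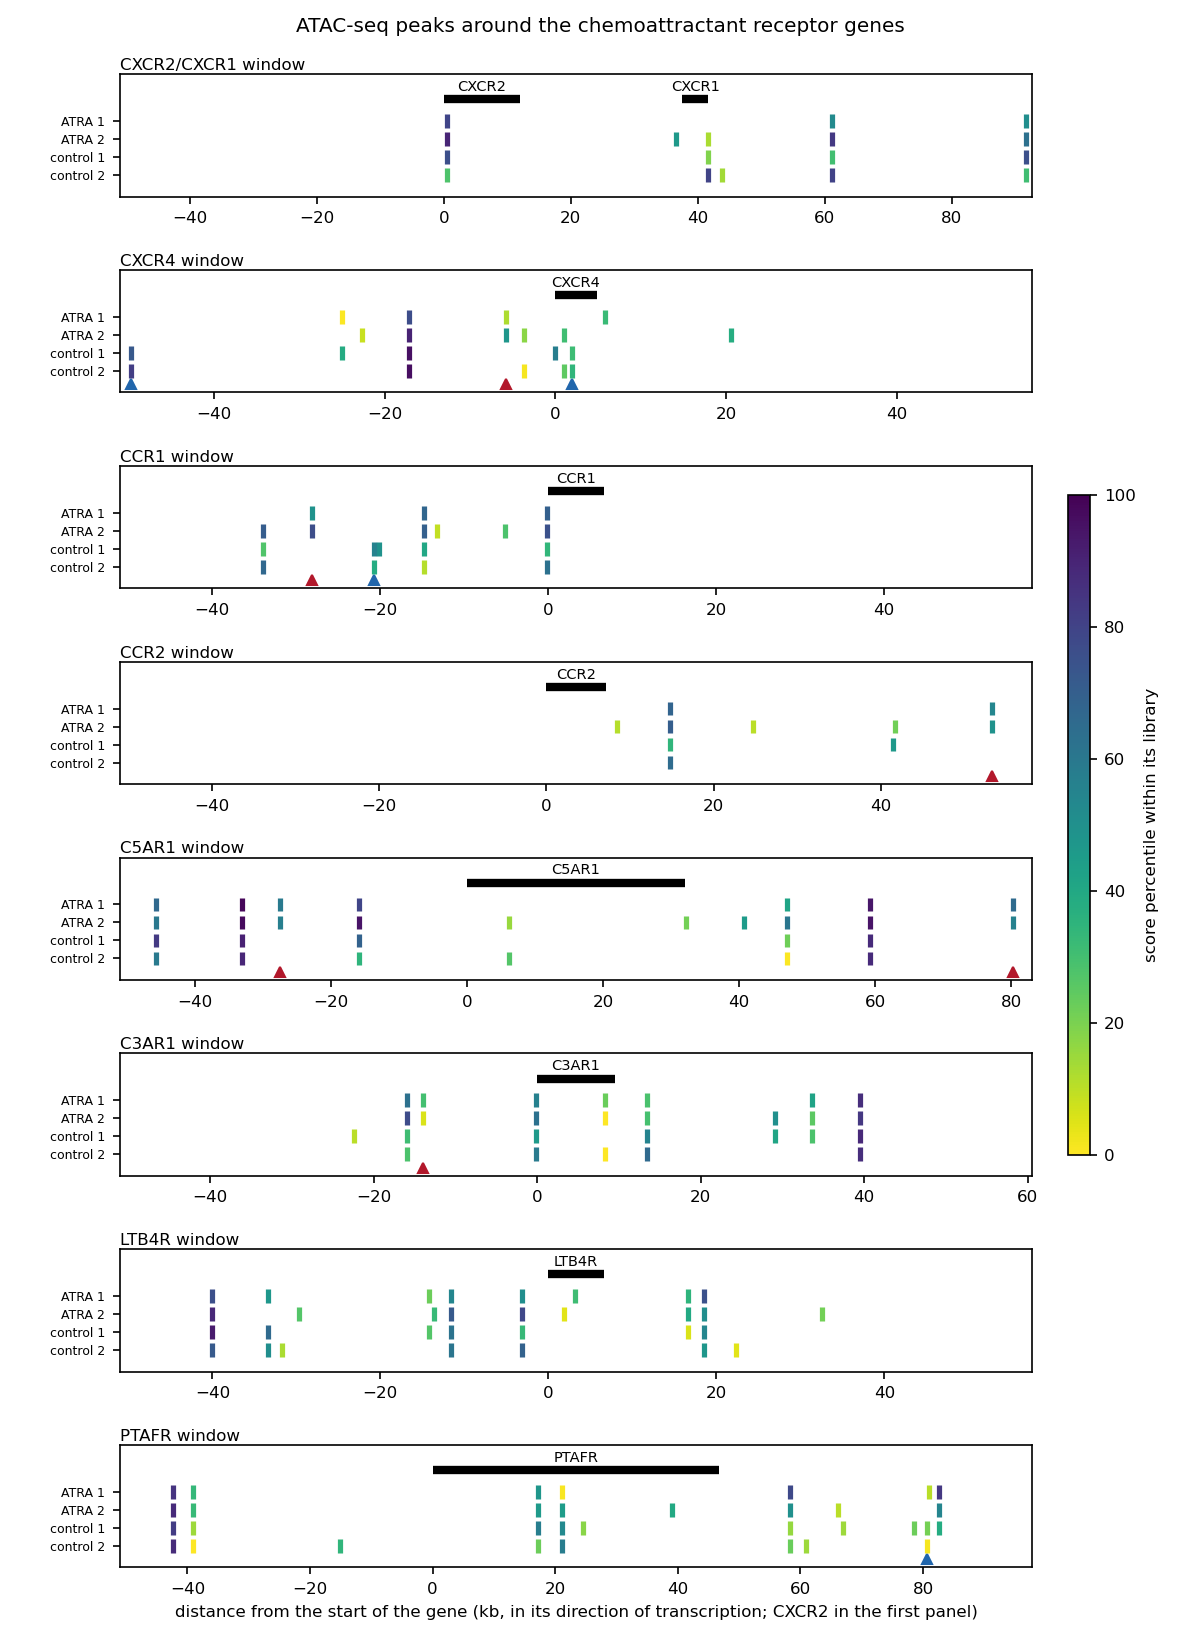
Peaks of each library around the receptor genes, with distance from the gene start in kb on the x axis, 1 row per library, and colour for the percentile of the peak score within its library (marks are drawn at 1 width, whatever the width of the peak). Black bars are gene bodies, red triangles the 6 ATRA-only regions and blue triangles the 4 control-only regions, which all but 1 lie outside the receptor genes.

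A second way of sorting was adapted from the study, which compared the peaks found in both replicates of each group. It was applied here to joined regions, so the totals are not those of the study. A region was called ATRA-specific when peaks of both ATRA replicates overlapped there by at least 1 bp. Peaks of both control replicates did not overlap in such a region. By this rule 10 of 79 regions (12.7%) were ATRA-specific, against 18.0% of all regions, and 7 (8.86%) were control-specific, against 9.52%. Another 25 overlapped between the groups and were found in all 4 libraries (30.3% of all regions were), and 37 (46.8%) were shared by the replicates of neither group. The ATRA-only regions made up 7.59% of the regions in the windows, against 8.94% of all, and the control-only regions 5.06%, against 3.37%. Of the 79 regions, 31 (39.2%) had a peak in 1 library, against 33.4% of all, and 16 of these 31 were in ATRA replicate 2. By gene, 7 of the 9 receptors had an ATRA-specific region in the window (64.5% of all genes) and 6 had a control-specific one (39.0%). The same control-specific region, at the start of CXCR1, was counted for both CXCR1 and CXCR2. An ATRA-only region lay in the windows of 5 of 9 genes (40.9%) and a control-only region in those of 3 of 9 (16.5%). All these shares are counts with no test. Where 1 library was left out and the remaining list stood for its group, there were 30 ATRA-specific regions without ATRA replicate 1, and 16 and 18 control-specific regions without control replicates 1 and 2.

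**Figure D3:**
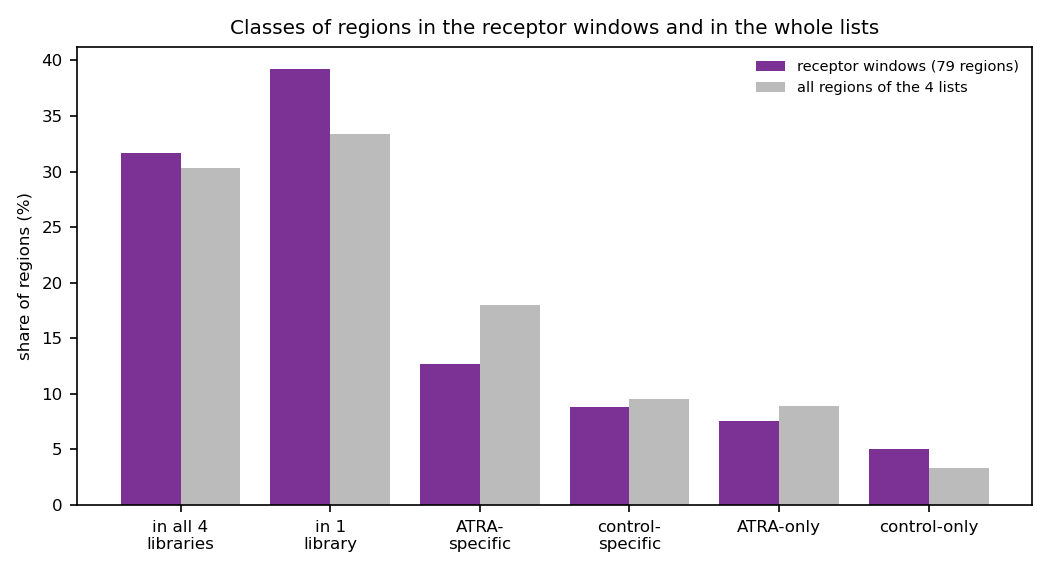
Share of regions in each class (%), in the receptor windows (purple, 79 regions) and in all 78063 regions (grey). The ATRA-specific share is 12.7% in the windows and 18.0% in all regions, and the control-only share is 5.06% and 3.37%.

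The starts of the receptor genes were read next. A start was counted as covered when a peak reached into the stretch from 1 kb upstream to 100 bp downstream of it. CXCR2, CCR1, C3AR1 and PTAFR were covered in all 4 libraries, CCR2 in 0 of 4. In 41.9% of all protein-coding genes a promoter peak was found in all 4 libraries, and in 44.1% in none. In each library 5 (ATRA replicate 1), 8 (ATRA replicate 2), 6 (control replicate 1) and 7 (control replicate 2) of the 9 receptors had such a peak, with 50.8%, 53.4%, 48.9% and 45.3% of all genes. LTB4R was the only receptor with a promoter peak in both libraries of 1 group and in neither of the other, and its peaks in the ATRA pair lay at different starts and did not overlap.

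Among the interleukin 8 receptors, CXCR2 (chr2:218990012-219001974, plus strand) had a region across its upstream starts. That region held a peak in all 4 libraries, though in ATRA replicate 1 the peak did not cover the most upstream start. The score percentile of a peak is its rank by score among all peaks of its own library, from 0 for the weakest to 100 for the strongest, and it was 79.6 and 89.8 in ATRA and 76.1 and 27.8 in control. Both ATRA values were higher, but control replicate 1 came close to ATRA replicate 1 while control replicate 2 was far below. The peak was 1599 bp wide in ATRA replicate 2 and between 619 and 929 bp in the others. The region holds a PU.1 match and a GATA match. The start of CXCR1 (chr2:219027564-219031685, minus strand) had a peak at the 12.6 percentile in ATRA replicate 2, at 19.0 in control replicate 1 and at 79.7 in control replicate 2, and none in ATRA replicate 1. This region was counted as control-specific by the overlap rule although 1 ATRA library held it. In the merged window of both genes no region was ATRA-specific, and none was found in both libraries of 1 group and in neither of the other. The counts of 0 ATRA-specific and 1 control-specific regions did not hold under all settings. With peaks scoring 100 or more they were 3 and 0, and without ATRA replicate 1 they were 1 and 0. Equal numbers of peaks and the longer overlap left both unchanged. A further region 19.6 kb upstream of CXCR1 had percentiles of 52.4 and 83.4 in ATRA and 30.4 and 80.3 in control, so the groups overlapped.

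At CXCR4 (chr2:136871919-136876747, minus strand), whose window holds no other protein-coding gene, 2 of the 4 control-only regions of the set were found. One covered an exon of CXCR4 itself (chr2:136874417-136875300), with scores of 75.50 and 73.93 in the control libraries, at the 31.6 and 34.7 percentiles, and widths of 825 and 884 bp. Next to it, on the promoter side, a peak was present in ATRA replicate 2 (30.5 percentile) and control replicate 2 (24.8 percentile), and the most upstream start had a peak in control replicate 1 alone (57.5 percentile). ATRA replicate 1 thus had no peak at any CXCR4 start, ATRA replicate 2 had 1, and each control library had 2. The other control-only region, 49.7 kb upstream, carried the highest scores of all 4 control-only regions, 157.12 and 169.94, at the 72.6 and 81.7 percentiles. It lies at the edge of the window. The ATRA-only region 5.8 kb upstream scored 60.70 and 108.28, at the 12.2 and 47.6 percentiles. The strongest region of the window, 17.2 kb upstream (chr2:136893293-136894586), was found in all 4 libraries at the 76.8 and 90.4 percentiles in ATRA and 96.0 and 96.4 in control. Both ATRA values were below both control values there, although ATRA replicate 2 had the widest peak, 1294 bp against 809 and 879 bp in control.

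CCR1 (chr3:46243202-46249804, minus strand), a receptor for CCL3 and CCL5, had a peak at its start in all 4 libraries, at the 69.9 and 75.3 percentiles in ATRA and 34.2 and 62.8 in control. Its upstream flank runs through introns of CCR3, the eotaxin receptor gene, and there a control-only and an ATRA-only region stood within 10 kb of each other. Moving upstream, a region at 14.7 kb was found in all 4 libraries with percentiles of 67.2 and 69.9 in ATRA and 40.5 and 11.1 in control. The control-only region at 20.7 kb had scores of 110.57 and 77.40, at the 55.9 and 38.5 percentiles. The ATRA-only region at 28.2 kb had scores of 102.24 and 202.61, at the 49.2 and 76.2 percentiles. Beyond it the CCR3 promoter at 34.0 kb had a peak in ATRA replicate 2 (70.9 percentile) and both controls (27.6 and 66.5), and none in ATRA replicate 1. CCR1 was thus a locus where the groups differed in both directions within 1 flank, though not under all settings. Its window had 1 ATRA-specific and 2 control-specific regions. With peaks scoring 100 or more the counts were 3 and 0, and with 20 kb either side both were 0. Equal numbers of peaks and the longer overlap left both counts unchanged.

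CCR2 (chr3:46395355-46402431, plus strand), the monocyte receptor for CCL2, had no peak at any of its 4 starts in any library. The only region of its window found in all 4 libraries lay 14.8 kb downstream of the start, with percentiles of 68.0 and 70.5 in ATRA and 34.5 and 65.0 in control. The ATRA-only region of the window covered the promoter of CCRL2 (chr3:46448483-46448873), which encodes an atypical receptor that binds chemerin. Its scores were 111.70 and 111.33, at the 54.2 and 49.0 percentiles, so the ATRA pair gave nearly equal values.

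The window of C5AR1, the C5a receptor gene, had 2 ATRA-specific regions and 0 control-specific ones. Without ATRA replicate 1 the counts were 5 and 0, without control replicate 1 they were 2 and 1, and with 20 kb either side both were 0. C5AR1 (chr19:47793280-47825323, plus strand) had no peak in any library at its first start, from which distances are counted. Its last start, at 47813118, had none either. At the start between them a weak peak was found in ATRA replicate 2 and control replicate 2 (15.6 and 26.8 percentiles). Its 2 ATRA-only regions lay in other genes. The one in an intron of CCDC9, 27.4 kb upstream, scored 123.05 and 131.16, at the 59.0 and 57.2 percentiles. The one in an intron of DHX34 (chr19:47873340-47873801), 80.3 kb downstream of the start, scored 141.74 and 128.66, at the 65.6 and 56.3 percentiles, and holds an AP-1 match. All 4 scores were above 100, and over all ATRA-only regions 22.6% scored 100 or more in both libraries. Of the 6 ATRA-only regions in the windows, 4 did so, and of the 4 control-only regions 1 did, against 18.5% of all control-only regions.

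The C5AR1 window also held 4 of the 11 shared regions whose percentile was higher in both ATRA libraries. At the promoter of C5AR2, which encodes the second C5a receptor, the percentiles were 41.5 and 60.6 in ATRA and 22.2 and 0.6 in control. At the promoter of INAFM1 they were 79.3 and 94.7 against 69.0 and 35.0. The control pair was spread widely at both, and the groups did not overlap. The remaining pair of regions, in CCDC9 and at the DHX34 promoter, were near the top of every library, with 98.4 and 97.5 against 90.7 and 89.2 in the former and 94.1 and 94.7 against 88.0 and 88.2 in the latter.

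C3AR1 (chr12:8209440-8218955, minus strand), the C3a receptor gene, had a start peak in all 4 libraries with overlapping percentiles of 56.6 and 62.6 in ATRA and 46.0 and 58.9 in control. Its window had 3 ATRA-specific regions and 0 control-specific ones, an order that did not hold under all settings. With equal numbers of peaks per library the counts turned to 0 and 1, with peaks scoring 100 or more they were 2 and 1, and without control replicate 2 they were 2 and 2. The ATRA-only region among these, in an intron of NECAP1 (chr12:8232720-8233154), was weak, with scores of 76.44 and 53.96 at the 30.0 and 5.7 percentiles. The other two each had a peak in 1 control library as well, the FOXJ2 promoter in control replicate 1 and an exon of C3AR1 in control replicate 2. That exon region was at the 22.9 percentile in ATRA replicate 1 and at the bottom of the list in ATRA replicate 2 (0.3) and control replicate 2 (0.0). Among the shared regions the promoter of NECAP1, a gene of clathrin-coated vesicles, had percentiles of 63.2 and 77.0 in ATRA and 31.1 and 28.5 in control. An exon of FOXJ2 had the opposite order, with 28.8 and 29.3 in ATRA and 55.3 and 65.8 in control. At these neighbouring genes the replicates lay close together and the groups were apart, in opposite directions.

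Of the lipid mediator receptors, LTB4R (chr14:24780656-24787242, plus strand), the leukotriene B4 receptor gene, had a peak near its start in each ATRA library and in no control library. The peak of ATRA replicate 1 was at the 31.1 percentile and that of ATRA replicate 2 at the 4.3 percentile, at separate starts, so they form 2 regions of 1 library each. Its window is crowded with 9 other genes, and its 14 regions included no ATRA-only and no control-only region. The shared regions with the largest differences were the promoters of CIDEB (51.0 and 78.4 in ATRA, 33.1 and 68.8 in control) and of ADCY4, an adenylyl cyclase gene (75.2 and 51.0 against 54.0 and 47.3). In both the groups overlapped.

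PTAFR (chr1:28473677-28520447, minus strand), the platelet-activating factor receptor gene, had a start peak in all 4 libraries at its internal start alone, with percentiles of 47.4 and 46.0 in ATRA and 57.8 and 22.3 in control. The upstream starts had none. A region in an intron of PTAFR (chr1:28499007-28499574) had percentiles of 1.1 and 45.2 in ATRA and 52.9 and 57.9 in control. The low value of ATRA replicate 1 makes up much of that difference. A region 58.3 kb downstream of the start had 77.8 and 50.3 in ATRA and 15.7 and 22.7 in control, with no overlap. The control-only region 80.6 kb downstream was weak, with scores of 66.02 and 50.91 at the 21.0 and 1.4 percentiles. The separation of groups there rests on peaks close to the lowest score in the lists.

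**Figure D4:**
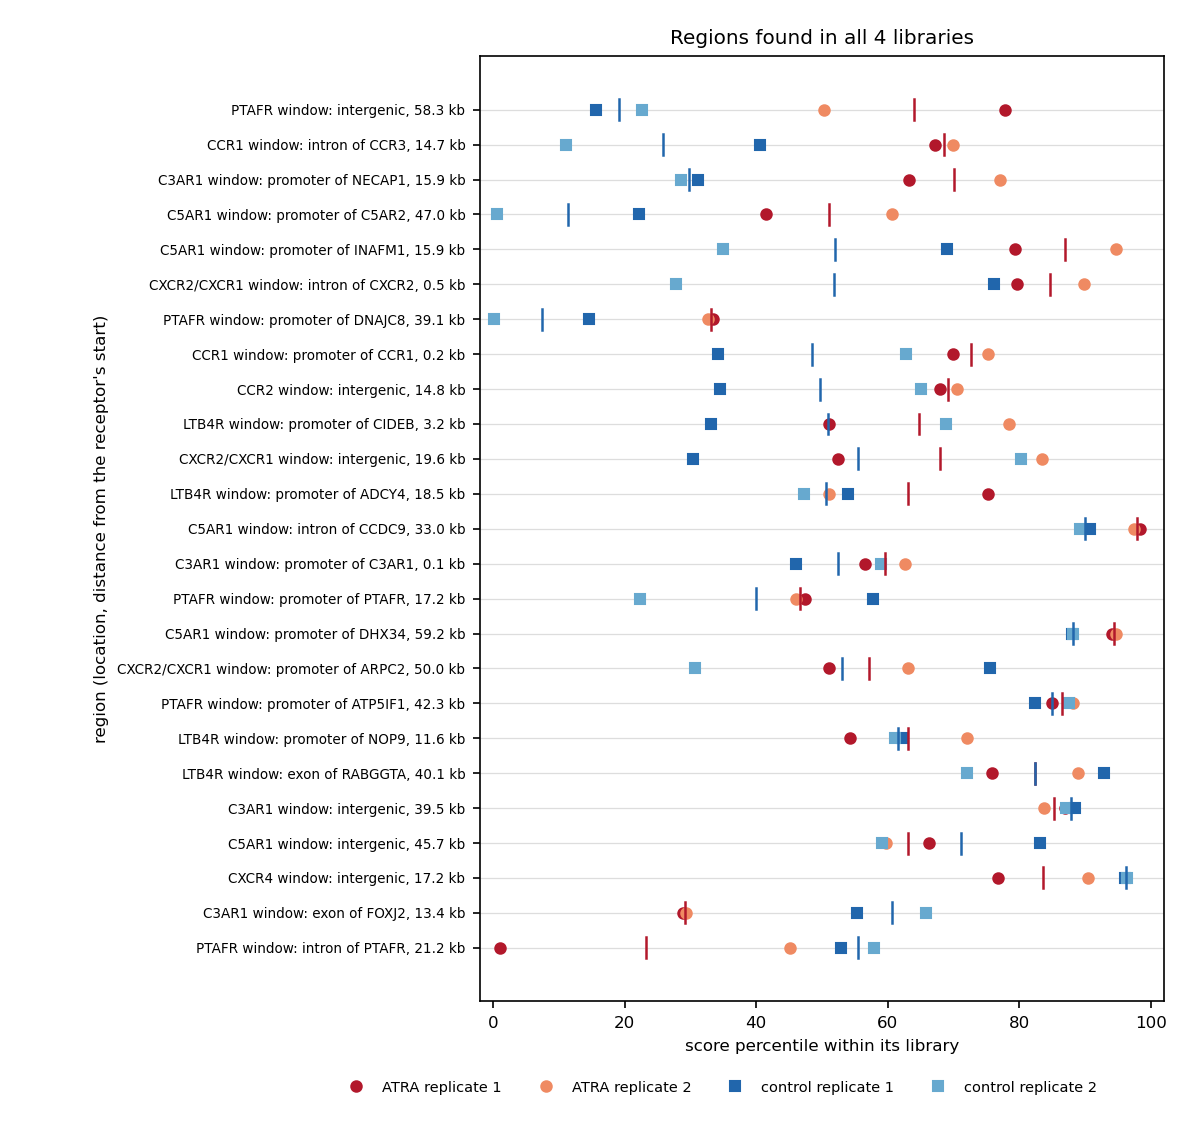
Score percentile within its library (x axis, 0 to 100) of each of the 25 regions found in all 4 libraries, with circles for ATRA libraries, squares for control libraries and bars for group means. Regions are sorted by the difference of the means, from the PTAFR downstream region (44.8) to the PTAFR intron (-32.2).

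Over the 25 regions found in all 4 libraries, the percentile was higher in both ATRA libraries than in either control at 11, against 29.2% of all 23653 such regions, and lower in both at 4, against 12.8%. The median difference, ATRA minus control, was 7.95 percentile points in the windows, with 19 of 25 above 0, and 2.83 points over all regions, with 61.8% above 0. Because a percentile is relative to all peaks of its library, it shifts with the share of weak peaks in that library. Scores of 105.46 and 105.04 in ATRA replicates 1 and 2 stood at the 51.0 and 46.0 percentiles. In control replicates 1 and 2, scores of 104.84 and 104.85 stood at the 52.9 and 58.9 percentiles. In ranks taken over the shared regions alone, the median difference of the normal scores was 0.22 in the windows and 0.004 over all. The limma fit of these ranks called 0 of 25 regions, and 0 of all 23653 (0%), at an adjusted p under 0.05. The smallest adjusted p of the windows was 0.313 and that of all regions 0.209. At an unadjusted p under 0.05 there were 7 of 25, against 12.5% of all regions. Of these, 4 were higher in ATRA, at the promoters of NECAP1, INAFM1 and C5AR2 and in the CCR3 intron 14.7 kb upstream of CCR1. The other 3 were lower, in the FOXJ2 exon, the PTAFR intron and the region 17.2 kb upstream of CXCR4. None of the receptor starts was among the 7. The number fell when either ATRA library or control replicate 2 was left out, and stayed the same without control replicate 1. Each of these fits leaves 1 library in a group. The rank differences at the receptor starts, in normal score units, were 0.99 ± 0.54 (SE, limma adjusted p = 0.52) at CXCR2 and 0.54 ± 0.39 (limma adjusted p = 0.631) at CCR1. They were -0.01 ± 0.35 (limma adjusted p = 0.995) at C3AR1 and -0.06 ± 0.48 (limma adjusted p = 0.976) at PTAFR.

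At other genes of chemotaxis the counts of specific regions were larger in the ATRA direction. Of 10 other chemoattractant receptor genes, 9 had an ATRA-specific region in the gene window and 4 a control-specific one. Of 11 genes of ligands and lipid mediator enzymes the numbers were 9 and 5, and of 21 signalling genes 18 and 10. The shares of all genes, 64.5% and 39.0%, were given above for comparison. The formyl peptide receptor genes FPR1, FPR2 and FPR3, which share much of 1 cluster, had 5, 4 and 5 ATRA-specific regions and 0 control-specific ones. CXCL8, the gene of interleukin 8 itself, had 6 and 0. The merged window of its receptors CXCR1 and CXCR2 had 0 and 1, but 3 and 0 with peaks scoring 100 or more. Among the signalling genes, ELMO1, a partner of the Rac activator DOCK2, had 9 and 1, and PREX1, another Rac activator, had 6 and 0. DOCK2 had 2 and 3. ARRB1, an arrestin gene, had 5 and 0, and PIK3CG and PIK3R5, the subunits of the phosphoinositide 3-kinase downstream of these receptors, had 4 and 0 each. Among the lipid mediator enzymes, ALOX5AP had 5 and 1 and ALOX5 had 3 and 2. Counts of 3 or 4 ATRA-specific regions were found at P2RY2 (4, with 2 control-specific), GNB1 (4 and 1), CCL2 (3 and 1), RGS19 (3 and 1), LYN (3 and 2), C5AR2 (3 and 0) and CCR3 (3 and 3). The windows of C5AR2, CCR3, CCRL2 and LTB4R2 overlap those of the 9 receptors and hold some of the same regions. Longer genes have longer windows, and these counts carry no test.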

How the data were processed

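ATAC-seq libraries of HL-60 cells, 2 control and 2 ATRA, were grouped by their titles. The methods of the study call the replicates independent biological replicates. The authors removed adapters, aligned reads to hg19 (Bowtie in the methods, Bowtie2 in the processing notes) and called peaks in each library with MACS2 at default settings. A shift to the Tn5 cut site, duplicate removal and a blacklist are not given in the sources used here, so peak edges may lie off the cut sites. The deposited lists hold 5 columns per peak, and the last is the score of the peak caller, from 50.0 to a ceiling of 3100, whose scale is not stated. It was used only to rank peaks within a library. There are no read counts, so depth is unknown and counting intervals cannot be given. A more deeply sequenced library can yield more and wider peaks.

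Peaks overlapping by 1 bp or more were joined into regions. Windows came from GENCODE release 44 on GRCh37, and all 24 chromosomes of the lists were in the reference. A region was placed by its centre: promoter (1 kb upstream to 100 bp downstream of a protein-coding start), exon, intron or intergenic. The 9 receptors, the other gene lists and the tests were chosen with earlier results of these data known. Named regions are those found in both libraries of 1 group and in neither of the other, those at a receptor start, and per window the 2 shared regions with the largest difference in mean percentile. Of the other chemotaxis genes, those with 3 or more specific regions of 1 kind are named, except for values not reported here, and CCRL2 and LTB4R2 are mentioned for their overlapping windows. Peaks and length per window were compared by exact permutation over the 6 assignments of libraries, and ranks by limma 3.58.1 (R 4.3.3) on normal scores of the rank within each library, with Benjamini-Hochberg adjustment over all 23653 regions found in 4 lists. The rank fit was also run on simulated data in which every region had the same spread. That run does not show how large a difference the fit can detect in the real libraries. Motifs were searched as letters in 300 bp about each centre. Python 3.11.15, numpy 2.4.6, pandas 2.3.3, matplotlib 3.10.9 and bedtools 2.31.1 were used. The alternatives were a stricter rule for specific regions, equal numbers of peaks, a score of at least 100, a longer overlap, other flanks, the replicate block, another transform, regions with a peak in any library, and each library left out.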

Additional observations from a re-analysis of the deposited data

How the results depend on the processing

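The number of ATRA-specific regions (10) was 6 where no peak of the other group was allowed, 17 with peaks scoring 100 or more, 4 with 20 kb either side and 17 with 100 kb. The number of control-specific regions (7) was 4, 3, 2 and 11 under the same settings. With 1 library left out, the lone list stood for its group, and the numbers ranged from 7 to 30 and from 5 to 18. The 30 came without ATRA replicate 1, where the longer list of ATRA replicate 2 stands alone, and the 16 and 18 control-specific regions without control replicate 1 and 2. Equal numbers of peaks (42081 per library) gave 8 and 8, and an overlap of 50% of the shorter peak gave 11 and 7. The difference in peaks per library (4.00) turned to -5.00 with equal numbers of peaks (exact permutation p = 0.667) and with a library left out it lay between -2.50, where ATRA replicate 2 was dropped, and 10.50, where ATRA replicate 1 was dropped. The difference in length under peaks (7.42 kb) kept its direction under all alternatives, at 3.84 kb with equal numbers of peaks and between 0.91 kb (ATRA replicate 2 dropped) and 13.92 kb (ATRA replicate 1 dropped) with a library left out. Neither difference reached p below 0.333.

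The limma fit called 0 regions of the windows and 0 of all regions under every alternative. The replicate numbers are shared by the groups, and deviations of same-numbered libraries from their group means correlated at r = 0.203, but with 2 pairs this does not show that they pair the libraries. With the replicate block the fit called 0 regions, with a smallest adjusted p of 0.222 in the windows, and an unadjusted p under 0.05 at 8 of 25. Over all alternatives the smallest adjusted p of the windows lay between 0.157 and 0.576. Of 156 alternative counts of specific regions per window, 99 stayed within 1.5 times the count given and 57 did not. Of 14 shared regions with percentile differences named by size, those 19.6 kb upstream of CXCR1 and at the CIDEB promoter changed sign when a library was left out (-12.4 to 37.5 and -4.2 to 31.6). With no depth given and 2 libraries a group, a missing peak does not show closed chromatin.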
